A study of Homo sapiens with 15 samples.

Results

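HSP90α-KO and HSP90β-KO cells were compared directly with each other, 3 libraries against 3, out of 15 samples in the series. Of the 17769 genes with an identifier in the knockout table, 16591 had a log2 CPM (reads scaled to a common library size, on a log2 scale) of -1 or more in at least 3 of these 6 libraries and were compared. All libraries were of mRNA from K562, a BCR-ABL1+ chronic myeloid leukemia line that received no drug. The HSP90α-KO and HSP90β-KO cells expressed Cas9 and a guide RNA against HSP90AA1 or HSP90AB1 from a lentivirus, and the 3 empty vector (EV) libraries, whose labels give the genotype as WT, were the shared control. Cells were sorted by a fluorescent marker and grown from single cells, and the labels do not give the number of clones behind a group. The loss of an isoform and the choice of a clone therefore cannot be told apart. The paper calls the 3 replicates independent, but the labels do not say whether they were separate cultures. The p-values therefore measure the spread between these libraries, which may be technical.

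HSP90 is a molecular chaperone that uses ATP to help client proteins, among them kinases, steroid hormone receptors and transcription factors, reach and keep an active shape. Its cytosolic form exists as 2 closely related isoforms: HSP90α, from HSP90AA1, is the more stress-inducible, and HSP90β, from HSP90AB1, is made constitutively. In BCR-ABL1+ leukemia the fusion kinase is itself a client of the chaperone.

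The guide sites show where each knockout was made and how far the guides are from the other isoform's gene. The sites are printed 5′ to 3′ in lower case, with the NGG motif that Cas9 needs in capitals, and were matched to GRCh38.
HSP90AA1 guide site: gacccaagaccaaccgatggAGG
HSP90AB1 guide site: cattagagatcaactcccgaAGG
The first lies on the minus strand at chr14:102086339-102086361, in exon 2 of 11, and Cas9 cuts next to base 34 of the 2196 coding bases of HSP90AA1, which is read from the same strand. The second lies on the minus strand at chr6:44248746-44248768, in exon 2 of 12 of HSP90AB1, a gene of the plus strand, with the cut next to base 123 of 2172 coding bases. For each guide the most similar NGG site in the other gene is shown next, with mismatched bases in capitals.
HSP90AA1 guide, best site in HSP90AB1: CaAccCTgaccaCccCatTgtgg
HSP90AB1 guide, best site in HSP90AA1: AaGCaTagatcTactGcTTaggg
These sites carried 7 and 8 mismatches, so neither guide had a close match in the gene of the other isoform.

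HSP90AA1 (ENSG00000080824, minus strand, chr14:102080742-102139699) was measured at 92.6, 88.0 and 90.8 CPM in the HSP90α-KO libraries and at 1218, 1190 and 1210 CPM in the HSP90β-KO libraries, with 716.5, 682.5 and 713.1 CPM in EV. The groups did not overlap, and EV lay between the knockouts. The difference between HSP90α-KO and HSP90β-KO was -3.74 as log2 (adjusted p = 7.4e-33 from limma, standard error 0.029), of which -2.96 was the difference of HSP90α-KO from EV and 0.78 that of HSP90β-KO from EV. The 40 nearest genes whose log2 CPM averaged at least 1, 20 on each side of HSP90AA1, had a median difference of 0.56 between HSP90β-KO and EV, with 35 of 40 above EV. Their part in the higher HSP90AA1 level of HSP90β-KO was not tested. The paper compared the DNA of HSP90β-KO and EV K562 cells on a SNP array and reports no change at the HSP90AA1 locus. HSP90AB1 (ENSG00000096384, plus strand, chr6:44246166-44253888) was measured at 3267, 3310 and 3344 CPM in HSP90α-KO and at 1939, 1909 and 1889 CPM in HSP90β-KO, with 2806 ± 21.1 CPM in the EV libraries (SD, n = 3). The direct difference was 0.79 (standard error 0.025, adjusted p = 1e-19 from limma), which passed the p threshold and not the 2-fold threshold. The HSP90β-KO libraries thus kept 40666 to 47724 reads each on the targeted gene, and protein was not measured in the files used here. The genes of the paralogs in the endoplasmic reticulum and the mitochondrion, HSP90B1 and TRAP1, had differences of -0.48 and -0.04.

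The knockouts were separated by many genes at high levels of change. A gene was called when its adjusted p from limma was under 0.05 and its log2 difference was above 1 or below -1. By this rule 1187 genes were higher and 889 lower in HSP90α-KO than in HSP90β-KO, 7.15% and 5.36% of the genes tested and 12.5% together. The adjusted p alone was passed by 10106 genes, and the median absolute difference over all genes was 0.27 on the log2 scale. Differences beyond 4 on the log2 scale, or 16-fold, were found in 93 higher and 77 lower genes. The 6 libraries did not overlap between groups in 2064 of the 2076 called genes, against 64.7% of all genes tested. Of the called genes, 1142 had a mean log2 CPM under 1, and in 272 each library of either group held 3 reads or fewer. A fitted log2 difference of such a gene depends on the prior count of about 2 reads in the deposited values, so it is neither an exact fold nor a bound. By their medians, called genes lay farther from EV in HSP90α-KO than in HSP90β-KO. The higher genes had a median difference from EV of 1.24 in HSP90α-KO and -0.51 in HSP90β-KO, and the lower genes -1.23 and 0.42.

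**Figure D1:**
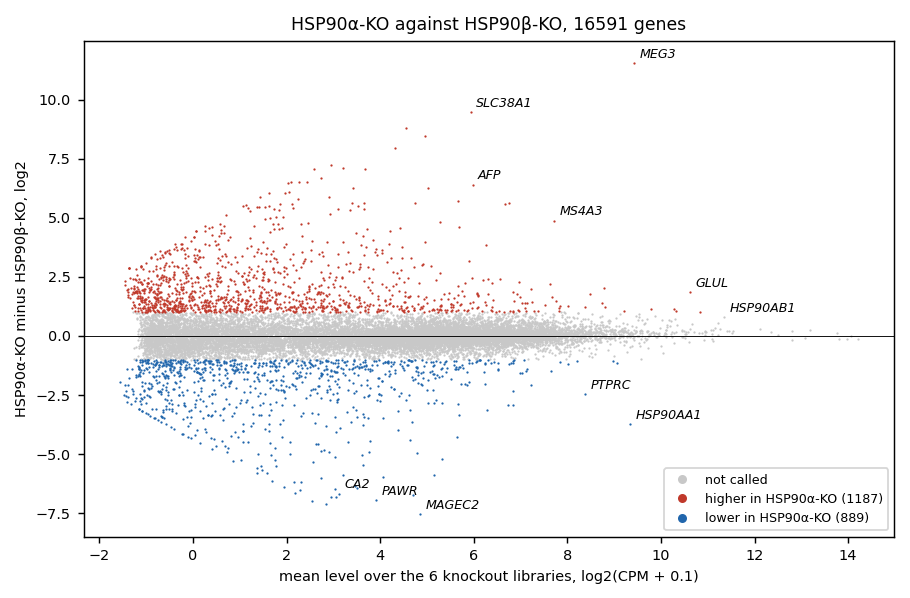
Difference between HSP90α-KO and HSP90β-KO (log2, vertical) against the mean level over the 6 knockout libraries (log2 of CPM + 0.1, horizontal), 1 point a gene. The 1187 genes called higher in HSP90α-KO are red and the 889 called lower are blue; MEG3 lies highest, at 11.54, and HSP90AA1 stands at -3.74 among the abundant genes.

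The largest differences were those of genes that were well expressed in one knockout and nearly absent from the other. SLC38A1, ANKRD44 and ZFP42 passed the filter through HSP90α-KO alone. The filter favors such calls, so their values are given only as a description. MEG3 (ENSG00000214548, plus strand, chr14:100779410-100861031), an imprinted long non-coding RNA with tumor suppressor activity, held 28604, 26534 and 26818 reads in HSP90α-KO, 15, 5 and 8 reads in HSP90β-KO, and 4436 to 5530 reads in EV. HSP90α-KO was thus above EV and HSP90β-KO far below it, a direct difference of 11.54 (standard error 0.17, adjusted p = 6.8e-27 from limma). The ratio of the summed levels was 3440 (95% exact counting interval 2380 to 5178, which covers counting error only). SLC38A1, a sodium-coupled glutamine transporter, held 2384 to 2466 reads in HSP90α-KO and 5, 0 and 2 reads in HSP90β-KO, a direct difference of 9.48 (adjusted p = 4.1e-22). ANKRD44 held 823 to 998 reads in HSP90α-KO, 9 to 13 in EV and only 1, 0 and 0 in HSP90β-KO, a ratio of 3236 with a counting interval of 580 to 1.28e+05. ZFP42, also known as REX1, a zinc finger gene used as a marker of pluripotent cells, held 1180 to 1263 reads in HSP90α-KO and 2 reads in each HSP90β-KO library, a ratio of 716 (interval 329 to 1952).

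GPD2, the mitochondrial glycerol-3-phosphate dehydrogenase, held 463 to 512 reads in HSP90α-KO and 376 to 425 in EV, against 0, 2 and 8 in HSP90β-KO. Its direct difference was 7.07 (standard error 0.28, adjusted p = 7.1e-18 from limma), and its difference from EV was 0.52 in HSP90α-KO and -6.55 in HSP90β-KO. GPD2, like ALB and ACACB below, passed the filter through HSP90α-KO alone, so the values of these genes are likewise only a description. AFP, the fetal serum protein alpha-fetoprotein, was measured at 122.1, 124.5 and 126.5 CPM in HSP90α-KO, 48.0 ± 0.83 CPM in the EV libraries (SD, n = 3) and 1.24, 1.15 and 1.86 CPM in HSP90β-KO, a direct difference of 6.40. Its neighbour ALB, the gene of albumin, differed by 3.62 on 30 to 44 reads in HSP90α-KO and 1 or 2 in HSP90β-KO. TESPA1, which acts downstream of the T cell receptor, differed by 6.27, ACACB, an acetyl-CoA carboxylase that limits fatty acid oxidation, by 6.28, and the long non-coding RNA LINC00261 by 5.70.

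Among the genes lower in HSP90α-KO, the largest difference was that of MAGEC2 (ENSG00000046774, minus strand, chrX:142202342-142205290), a cancer-testis antigen. It held 4, 4 and 5 reads in HSP90α-KO, 1199, 1402 and 1386 in HSP90β-KO and 621 to 896 in EV, a direct difference of -7.54 (standard error 0.095, adjusted p = 3.3e-28 from limma). MAGEC2, like PAWR below, passed the filter through HSP90β-KO alone. The filter favors such calls, so the values of both genes are given only as a description. PAWR, a pro-apoptotic regulator that interacts with WT1, held 4, 5 and 1 reads in HSP90α-KO, 616 to 750 in HSP90β-KO, and differed by -6.95, with EV at 27.8 ± 0.70 CPM (SD, n = 3). SAGE1, a further cancer-testis antigen, differed by -6.72, on 5 to 13 reads in HSP90α-KO and 1101 to 1248 in HSP90β-KO. PAWR and SAGE1 were close to EV in HSP90β-KO, with differences of 0.10 and 0.07. RYR2, the calcium release channel of the heart, was measured at 2.20, 1.66 and 2.26 CPM in HSP90α-KO and at 76.6, 80.1 and 77.0 CPM in HSP90β-KO, with EV at 95.3 ± 3.63 CPM (SD, n = 3), a difference of -5.21. RASA3, a GTPase-activating protein of RAS and RAP, differed by -5.47, from 0.49 ± 0.22 CPM in HSP90α-KO to 24.2 ± 1.00 CPM in HSP90β-KO (SD, n = 3 each).

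The most abundant called genes had smaller differences. GLUL, glutamine synthetase, was measured at 2427, 2460 and 2458 CPM in HSP90α-KO and at 687.8, 681.7 and 682.5 CPM in HSP90β-KO, a difference of 1.84 (standard error 0.025, adjusted p = 1.4e-27 from limma), and EV was at 620.9 ± 5.98 CPM (SD, n = 3). MALAT1, a nuclear long non-coding RNA, CD24, a surface sialoglycoprotein, ACSM3, a mitochondrial acyl-CoA synthetase, and the mitochondrial ribosomal RNA MT-RNR1 were higher by 1.13, 1.14, 1.04 and 1.01. Under quantile normalization MALAT1, CD24 and MT-RNR1 differed by 0.92, 0.96 and 0.80 and were no longer called, and MT-RNR1 fell below the fold threshold without HSP90α-KO replicate 3 (0.995) or HSP90β-KO replicate 1 (0.996). The most abundant lower genes beside HSP90AA1 included PTPRC, LAPTM4B, ATP6V0A1 and MCTS1. PTPRC, the leukocyte phosphatase CD45, was measured at 95.24, 104.2 and 106.5 CPM in HSP90α-KO and at 560.5, 566.6 and 566.0 CPM in HSP90β-KO, a difference of -2.47 (adjusted p = 2.8e-27). LAPTM4B, a lysosomal membrane protein, and ATP6V0A1, a subunit of the proton pump of acidic vesicles, differed by -1.16 and -1.07, and MCTS1, a translation re-initiation factor on chromosome X, by -1.08.

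In 229 genes the knockouts moved to opposite sides of EV. Of these, 129 were called higher than EV in HSP90α-KO and lower than EV in HSP90β-KO, 0.778% of the genes tested, and 100 were called the other way round, 0.603%. Both comparisons share the 3 EV libraries, and over all genes 9.88% were called in either direction in HSP90α-KO and 4.12% in HSP90β-KO. Their direct difference had to exceed 2 on the log2 scale by this choice, so their median direct differences of 3.74 and -3.49 are given only as a description (median over all genes tested -0.007). A log2 CPM of at least 1, averaged over the 9 libraries, was reached by 52 of the 129 and by 31 of the 100. The first group held 92 protein-coding genes and 27 long non-coding RNAs, and the second 72 and 22.

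Ranked by the smaller of both differences from EV, and among genes that averaged a log2 CPM of at least 1 over the 9 libraries, those above EV in HSP90α-KO and below EV in HSP90β-KO were led by ZFP42 (+4.22 and -4.23 from EV), SLC38A1 (+3.505 and -5.975), TESPA1 (+3.495 and -2.77), MEG3 (+2.69 and -8.85) and ACACB (+3.63 and -2.65). ZFP42 was measured at 61.6, 62.8 and 60.6 CPM in HSP90α-KO, 3.61, 3.28 and 2.82 CPM in EV and 0.095, 0.085 and 0.079 CPM in HSP90β-KO. With 2 reads in each HSP90β-KO library, its fitted difference of -4.23 depends on the prior count. IL18R1 and IL18RAP, which encode both chains of the interleukin-18 receptor and lie next to each other on chromosome 2, were in this group together. IL18R1 was measured at 24.2, 22.2 and 26.5 CPM in HSP90α-KO, 4.90, 5.16 and 4.16 CPM in EV and 0.57, 0.47 and 0.48 CPM in HSP90β-KO. IL18RAP differed from EV by 3.13 and -2.37, and SWAP70, a signalling protein of B cells and mast cells, by 2.40 and -2.93. No library of these genes crossed into the range of another group. They were chosen for large differences from EV on both sides, which favors such a separation, so it is only a description.

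By the same ranking and level limit, genes below EV in HSP90α-KO and above EV in HSP90β-KO were led by TRDN (-2.66 and +3.22 from EV), ESRRB (-3.27 and +2.62), SPECC1 (-2.61 and +3.76), UTRN (-4.13 and +2.32) and HIVEP2 (-3.67 and +2.29). TRDN, the gene of triadin, a partner of calcium release channels, was measured at 0.88, 1.14 and 1.33 CPM in HSP90α-KO, 8.178, 6.989 and 7.204 CPM in EV and 69.1, 71.9 and 68.8 CPM in HSP90β-KO. ESRRB, an orphan nuclear receptor of pluripotent cells, held 3 to 6 reads in HSP90α-KO, 59 to 67 in EV and 359 to 446 in HSP90β-KO. The direction of ESRRB was thus opposite to that of ZFP42. UTRN, the dystrophin relative utrophin, held 3 or 4 reads in HSP90α-KO, 81 to 132 in EV and 490 to 569 in HSP90β-KO. ESRRB, SPECC1 and UTRN passed the filter through HSP90β-KO alone. The filter favors such calls, so the values of these genes are given only as a description. IGSF10 (-1.82 and +2.61), the cytoskeletal adaptor ANK2 (-2.09 and +1.79) and GAS2 (-1.89 and +1.58) followed. Among the more abundant genes of this pattern were IFITM3, an interferon-induced barrier to virus entry, at 24.7 ± 1.504, 72.4 ± 3.43 and 187 ± 1.06 CPM in HSP90α-KO, EV and HSP90β-KO, and the adhesion receptor CD44, at 4.01 ± 0.20, 10.1 ± 0.42 and 27.8 ± 0.78 CPM (SD, n = 3 each).

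**Figure D2:**
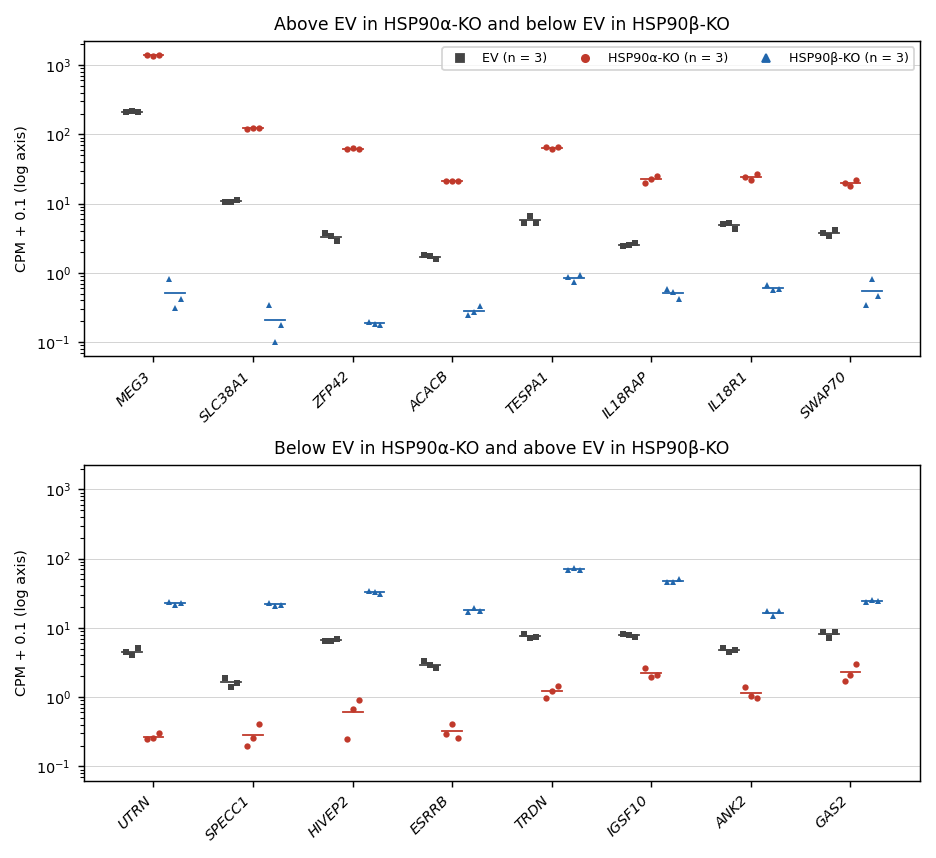
Levels in each library (CPM + 0.1, log axis) of the 8 leading genes of each opposite pattern that averaged a log2 CPM of at least 1 over the 9 libraries, with EV as dark grey squares, HSP90α-KO as red circles and HSP90β-KO as blue triangles; bars are means of 3 libraries. In the upper panel HSP90α-KO lies above and HSP90β-KO below EV, as for ZFP42 at 61.7, 3.24 and 0.087 CPM on average, and in the lower panel the order is the reverse.

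**Figure D3:**
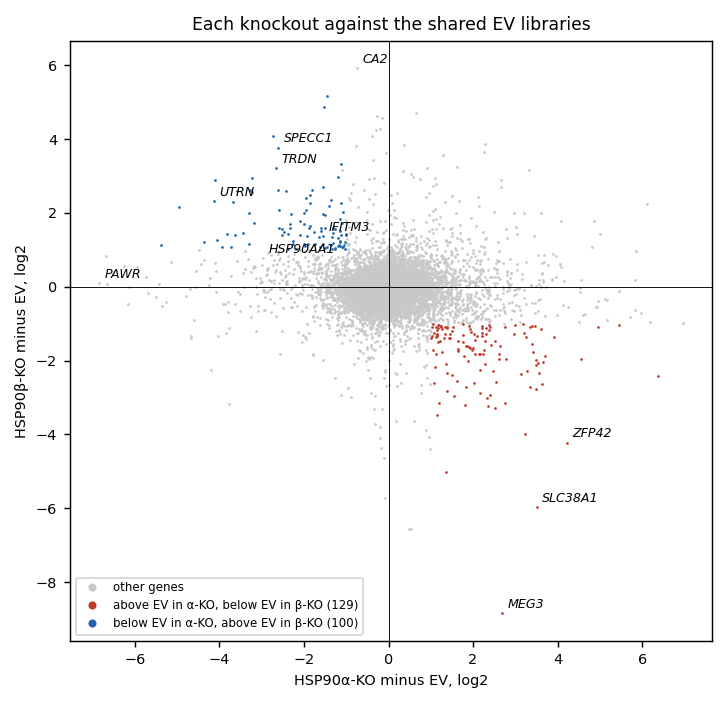
Difference of each knockout from the shared EV libraries (log2), HSP90α-KO horizontally and HSP90β-KO vertically, 1 point a gene. The 129 red and 100 blue genes were called on opposite sides of EV; PAWR lies near the horizontal axis and CA2 near the vertical axis, since each moved mainly in 1 knockout.

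The position of genes on the chromosomes moved with the difference between the knockouts. In windows of 40 neighbouring genes, each averaging a log2 CPM of at least 1, 4 segments had a median direct difference beyond 0.25 in at least 3 consecutive windows. On the distal long arm of chromosome X (chrX:72181353-154777689) 278 genes were tested and the median was -0.75, with 108 called lower and 10 higher. The median difference from EV there was -0.77 in HSP90α-KO and 0.03 in HSP90β-KO. On chromosome 10 (chr10:91163012-128126423, 221 genes tested) the median was 0.55, again with the difference from EV in HSP90α-KO (0.59) and not in HSP90β-KO (0.03). On chromosome 2 (chr2:178463664-240617705, 277 genes) the median was 0.61 and on chromosome 1 (chr1:203305491-247880138, 255 genes) 0.36, and in both HSP90β-KO was the group away from EV, with medians of -0.54 and -0.35. Runs shorter than the 3 windows required were found in 13 places, 4 of them of 2 windows. These were at the start of chromosome X (0.28 to 0.49), on chromosome 2 (0.44 and 0.45), on chromosome 15 (0.26 and 0.28) and at the end of chromosome 14. The last 2 windows of chromosome 14 had medians of -0.62 and -0.75, with HSP90β-KO at 0.55 and 0.67 from EV. The segments held 6.21% of the genes tested, 11.1% of the genes called higher and 15.3% of those called lower, which left 1055 higher and 753 lower genes outside them. Segments and calls were both chosen by the direct difference, so an excess of called genes in segments was built in. These counts and shares are given only as a description. DNA copy number was not analysed here, and the paper's SNP array result for the HSP90AA1 locus on chromosome 14 is given above. Of the opposite genes, 13 of 129 and 6 of 100 lay in a segment.

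**Figure D4:**
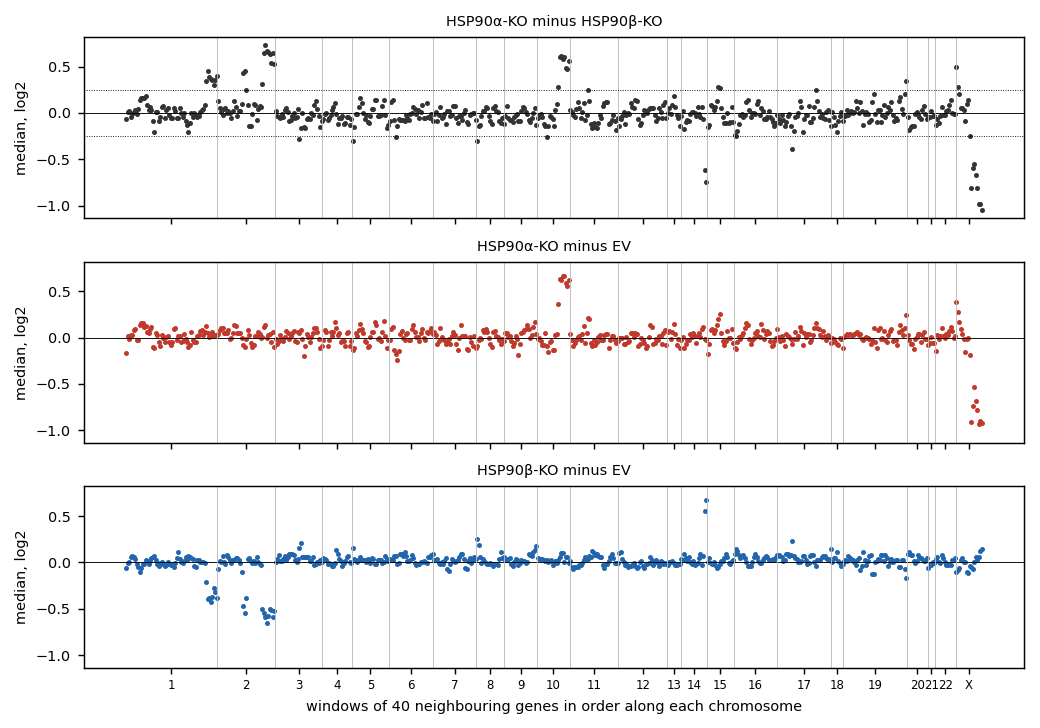
Median log2 difference in windows of 40 neighbouring expressed genes, in order along each chromosome, for HSP90α-KO against HSP90β-KO (top; dotted lines at 0.25 and -0.25), HSP90α-KO against EV (middle) and HSP90β-KO against EV (bottom). HSP90α-KO departs from EV on chromosomes 10 and X, and HSP90β-KO on chromosomes 1, 2 and 14.

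Blood lineage genes differed in part, and counts over the gene lists described from here on stand beside 7.15% of all genes called higher and 5.36% called lower. The K562 markers for which values were given, GATA1, KLF1, TAL1, TFRC, ALAS2, HBZ, HBG1 and HBG2, were detected in all 9 libraries. GATA1, the erythroid master regulator, was at 205 ± 15.0 CPM in HSP90α-KO and 148 ± 4.61 CPM in HSP90β-KO (SD, n = 3 each), a difference of 0.47. Of 27 tested globin and red cell genes, 2 were called higher and 4 lower in HSP90α-KO. SLC4A1 and CA2 passed the filter through 1 knockout alone, and the other 25 gave 1 higher and 3 lower calls (median -0.36). HBG2, a fetal globin chain, was measured at 5.077, 7.201 and 7.135 CPM in HSP90α-KO and 15.6, 15.6 and 13.3 CPM in HSP90β-KO, a difference of -1.20 (adjusted p = 1.5e-10), and its near-identical copy HBG1, between which reads are hard to assign, differed by -0.78. HEMGN, a nuclear regulator of red cell maturation, fell by 1.45, and the red cell skeleton gene SPTB was higher by 1.53. CA2, the red cell carbonic anhydrase, held 3, 1 and 1 reads in HSP90α-KO, 4 to 5 in EV and 352 to 464 in HSP90β-KO. In heme synthesis and iron handling, 1 of 24 genes was called higher and 1 lower (median of the list -0.009). SLC40A1, the iron exporter ferroportin, which lies in the chromosome 2 segment, differed by 2.65. ALAS2, the rate-limiting enzyme of erythroid heme synthesis, differed by -1.13.

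The sharpest contrast among 25 blood lineage transcription factors, of which 4 were called higher and 2 lower, was between BCL11A and GFI1. BCL11A passed the filter through HSP90β-KO alone, and the other 24 gave 4 higher and 1 lower call (median 0.38). BCL11A, a repressor of fetal globin genes, held 3, 3 and 1 reads in HSP90α-KO, 252 to 326 in HSP90β-KO and 212 to 287 in EV, a fitted difference of -6.00. GFI1, a repressor active in granulocyte precursors, held 262 to 314 reads in HSP90α-KO, 5 to 11 in HSP90β-KO and 23 to 34 in EV, a difference of 5.18 (adjusted p = 1.7e-18). LDB1, a partner of GATA1 complexes that lies in the chromosome 10 segment, was higher by 1.19, and CEBPA, a myeloid factor, fell by 1.18. Of 26 listed myeloid granule genes only 8 passed the filter on low values, with 5 called higher and 1 lower. PRTN3 and PRG2 passed through HSP90α-KO alone, and of the other 6 genes 3 were higher and 1 lower (median 1.69). MS4A3, expressed in basophils and granulocyte precursors, was measured at 391, 411 and 414 CPM in HSP90α-KO, 14.6, 12.2 and 14.1 CPM in HSP90β-KO and 6.97 ± 1.02 CPM in the EV libraries (SD, n = 3), a difference of 4.88 (adjusted p = 1.1e-26). The eosinophil granule genes PRG2 and EPX differed by 4.56 and 3.28, and CSF3R, the receptor of G-CSF, by 2.39. HDC was the gene called lower, by -1.985, at a mean of 0.59 CPM in HSP90α-KO and 2.62 CPM in HSP90β-KO. CSF3R was at 133 ± 5.08 CPM in HSP90α-KO and 25.4 ± 1.59 CPM in HSP90β-KO (SD, n = 3 each), with EV between them at 85.5 ± 2.15 CPM. Among 13 megakaryocyte and platelet genes, 2 were called higher and 3 lower. GNG11, a G protein subunit that passed the filter through HSP90β-KO alone, stood at 0, 1 or 2 reads in HSP90α-KO and 60 to 75 in HSP90β-KO, and the other 12 gave 2 higher and 2 lower calls (median 0.37).

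Genes of the leukocyte surface were called in 16 of 30 cases, of which 12 were higher and 4 lower in HSP90α-KO. ITGA4, ITGA6, ITGAL and PECAM1 passed the filter through HSP90α-KO alone and are 4 of the 12, and of the other 26 genes 12 were called (46.2%, beside 12.5% of all genes), with a median of 0.41. ITGA4, the integrin chain of VLA-4, held 339 to 382 reads in HSP90α-KO, 3 to 5 in EV and 2 or fewer in HSP90β-KO, and lies in the chromosome 2 segment. S1PR1, the receptor that guides lymphocytes out of tissue, was at 27.0 ± 1.00 CPM in HSP90α-KO and 2.24 ± 0.25 CPM in HSP90β-KO (SD, n = 3 each), a difference of 3.54, and CD52, a small glycoprotein of lymphocytes, differed by 2.91. CD44 and PTPRC went the other way. In immune receptor signalling, 10 of 33 genes were higher and 1 lower (median 0.32). They were led by NCF4, a subunit of the phagocyte oxidase (3.46), INPP5D, the inositol phosphatase SHIP1 (3.30, in the chromosome 2 segment), FYB1, an adaptor of T cells (3.19), and RASGRP1, an activator of RAS (2.38). LCP2, an adaptor that binds FYB1, was measured at 193.5, 187.8 and 193.5 CPM in HSP90α-KO, 62.2, 62.2 and 61.0 CPM in HSP90β-KO and 31.3 ± 1.23 CPM in the EV libraries (SD, n = 3), so that both knockouts lay above EV and HSP90α-KO the more, by 1.63 (standard error 0.039, adjusted p = 1.4e-22). Of the 15 listed lymphoid markers, 7 were tested and 4 were lower in HSP90α-KO: CD3G, CD3E and CD3D, chains of the T cell receptor complex, and CD22, a B cell receptor. CD3G passed the filter through HSP90β-KO alone, and 3 of the other 6 were lower. Their summed level over 8 genes in the table was 12.6 to 14.3 CPM in HSP90α-KO, 18.7, 20.4 and 21 in EV and 28.5 to 31.5 in HSP90β-KO. CD3G stood at 0, 0 and 1 reads in HSP90α-KO and at 37 to 45 reads in HSP90β-KO. None of the 3 stromal and epithelial markers tested was called by limma (1 passed an unadjusted p of 0.05) or by voom.

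Genes of ERK output and feedback were higher in HSP90α-KO in 7 of 25 cases and lower in none. EGR2, EGR3 and DUSP6 passed the filter through HSP90α-KO alone and are 3 of these 7, and of the other 22 genes 4 were higher (18.2%, beside 7.15% of all genes), with a median of 0.14. EGR1, an immediate early transcription factor, was at 341, 311 and 317 CPM in HSP90α-KO, 72.2, 70.5 and 68.7 CPM in HSP90β-KO and 82.9 ± 2.25 CPM in the EV libraries (SD, n = 3), a difference of 2.19 (adjusted p = 1.1e-25 from limma). EGR2, the cell cycle gene CCND1, the ERK phosphatase DUSP4 and EGR3 differed by 3.34, 3.24, 3.18 and 2.42 at low levels, with 129 reads or fewer in any library. FOS, JUN and SPRY2 differed by 0.74, 0.01 and -0.17 and were not called. BCR-ABL1 signalling and STAT5 targets gave 1 call in 25 genes (4.0%, beside 12.5% of all genes), with a median of -0.007. The fusion partners BCR and ABL1 differed by 0.05 (adjusted p = 0.29) and -0.06 (adjusted p = 0.07), and the called gene was the adaptor GAB1 at -1.36. Among 26 HSP90 clients and survival genes 4 were higher and 2 lower. Of these, 1 higher gene passed the filter through HSP90α-KO alone, and the other 25 gave 3 higher and 2 lower calls (median 0.13). NR3C1, the glucocorticoid receptor, was at 1.87 ± 0.25 CPM in HSP90α-KO and 20.7 ± 1.60 CPM in HSP90β-KO (SD, n = 3 each), a difference of -3.42 (adjusted p = 3.9e-21). KIT, the stem cell factor receptor, was higher by 2.29 and INSR, the insulin receptor, by 1.38.

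The chaperone system itself gave few calls. Of 26 heat shock response genes 2 were called higher in HSP90α-KO and none lower. HSPA1A passed the filter through HSP90α-KO alone, and of the other 25 genes 1 was called (4.0%, beside 12.5% of all genes), with a median of 0.10. HSPA6, a strictly inducible HSP70, was at 12.4, 12.0 and 10.4 CPM in HSP90α-KO, 4.39, 3.58 and 4.43 CPM in HSP90β-KO and 16.9 ± 0.55 CPM in the EV libraries (SD, n = 3), a difference of 1.47 (adjusted p = 3.5e-13). Both knockouts were below EV, by 0.54 and 2.01. HSPA1A, the major inducible HSP70, held 16 to 18 reads in HSP90α-KO, 7 or 8 in HSP90β-KO and 18 to 29 in EV, a difference of 1.17, and its reads are uncertain because HSPA1B is nearly identical. The constitutive HSPA8 and the mitochondrial HSPD1, which lies in the chromosome 2 segment, differed by 0.84 and 0.74 and were not called. The promoters of both called genes are shown because heat shock factor binds repeats of GAA and TTC. They are the 250 bases before the RefSeq start (GRCh38.p14, plus strand), HSPA6 at chr1:161524290-161524539 and HSPA1A at chr6:31815293-31815542, with each GAANNTTC, which reads the same on both strands, in capitals.
HSPA6 promoter: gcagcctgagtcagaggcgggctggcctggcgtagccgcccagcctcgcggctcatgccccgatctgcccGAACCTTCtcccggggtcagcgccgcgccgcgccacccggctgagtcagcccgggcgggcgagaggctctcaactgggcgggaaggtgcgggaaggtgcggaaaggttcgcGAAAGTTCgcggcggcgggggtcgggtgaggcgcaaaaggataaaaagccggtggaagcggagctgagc
HSPA1A promoter: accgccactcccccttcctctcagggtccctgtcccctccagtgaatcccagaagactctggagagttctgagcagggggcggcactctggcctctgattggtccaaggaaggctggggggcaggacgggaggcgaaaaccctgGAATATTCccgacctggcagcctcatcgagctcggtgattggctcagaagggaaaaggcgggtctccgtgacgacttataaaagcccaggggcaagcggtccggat
GAANNTTC was found 2 times in the first and once in the second, and in 3.96% of the 11065 tested genes with a matched promoter, 5.50% of the 727 called higher and 5.29% of the 510 called lower. None of the 20 HSP90 co-chaperones was called by limma (15 passed an unadjusted p of 0.05) or by voom, and they ranged from -0.64 for PPID to 0.31 for CDC37L1. None of the 33 genes of ATF4 and the unfolded protein response was called by limma (26 passed an unadjusted p of 0.05) or by voom (median 0.002).

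The imprinted DLK1-MEG3 locus on chromosome 14 held 4 higher genes among its 5 tested ones, but MEG8, MEG9 and RTL1 passed the filter through HSP90α-KO alone, and the filter favors such calls. Of the 2 others, MEG3 was higher and DLK1 was not called. Beside MEG3, the long non-coding RNA MEG8 held 288, 285 and 329 reads in HSP90α-KO, 27 to 44 in EV and 0, 0 and 1 in HSP90β-KO, a ratio of 1060 (counting interval 190 to 4.19e+04). MEG9 held 59 to 62 reads in HSP90α-KO, 7 to 16 in EV and none in HSP90β-KO, which made it at least 23.6-fold higher in HSP90α-KO, with 3 reads per library as the floor. RTL1, a retrotransposon-derived gene on the opposite strand, differed by 2.78 on 15 to 25 reads in HSP90α-KO. It overlaps MEG8 by position, and the strand setting used in counting is not given in the sources used here. DLK1, the protein-coding gene expressed from the other parental copy, had the opposite order, at 514 ± 32.5 CPM in HSP90α-KO and 1018 ± 24.2 CPM in HSP90β-KO (SD, n = 3 each), a difference of -0.99. Around MEG3, 40 expressed neighbours had a median direct difference of -0.43. Among 17 other imprinted genes 2 were higher and 2 lower. H19 and PEG10 passed the filter through 1 knockout alone, and the other 15 gave 2 higher and 1 lower call (median -0.19). H19, the long non-coding RNA of the IGF2 locus, held 0 reads in HSP90α-KO and 19 to 40 in HSP90β-KO, and was at least 7.66-fold lower.

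Cancer-testis antigens, germ cell genes that tumors switch on, were lower in HSP90α-KO in 13 of 25 tested genes and higher in 2. Of 67 listed genes these 25 had passed the filter on low values, 9 of them through 1 knockout alone, and 8 of those 9 were among the calls, which the filter favors. Of the other 16 genes 7 were called, each of them lower (43.8%, beside 12.5% of all genes), with a median of -0.88. MAGEC2, SSX1, SAGE1 and PASD1 had the largest differences, from -7.54 to -5.33. MAGEC2 and SSX1 were among the 9 genes that passed through 1 knockout alone. SSX1 held 3, 0 and 1 reads in HSP90α-KO, 16 to 24 in EV and 362 to 396 in HSP90β-KO. MAGEB10 and MAGEB17 were the higher ones, by 3.91 and 3.34, on at most 38 and 52 reads in a library. The chromosome X segment held 11 of the 25, of which 7 were among the 13 lower ones, and the part of the segment in these calls was not tested. Reads of MAGEA and SSX family members are hard to assign because of their similar sequences. The sequences upstream of the RefSeq start of MEG3 and MAGEC2, the genes with the largest difference in each direction, are given with every CG dinucleotide, the site of promoter methylation, in capitals (GRCh38.p14, chr14:100825858-100826107 on the plus strand and chrX:142205291-142205540 on the minus strand).
MEG3 promoter: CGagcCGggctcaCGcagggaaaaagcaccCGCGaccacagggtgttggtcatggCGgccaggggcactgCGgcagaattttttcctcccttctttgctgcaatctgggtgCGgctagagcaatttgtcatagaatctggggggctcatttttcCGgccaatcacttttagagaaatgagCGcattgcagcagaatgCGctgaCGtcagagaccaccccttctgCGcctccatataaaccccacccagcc
MAGEC2 promoter: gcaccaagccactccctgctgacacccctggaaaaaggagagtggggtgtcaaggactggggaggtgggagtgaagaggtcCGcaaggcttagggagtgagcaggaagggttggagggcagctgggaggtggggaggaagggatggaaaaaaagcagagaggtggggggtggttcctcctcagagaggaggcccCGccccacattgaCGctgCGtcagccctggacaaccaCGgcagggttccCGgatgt
The MEG3 start in RefSeq lies inside the longer gene model whose position is given above. The sequences held 13 and 6 CG, and methylation was not measured in the files used here. At least 10 CG were found in 82.5% of the 11065 matched promoters, 58.0% of those of genes called higher and 64.3% of those called lower. Among opposite genes the shares were 51.8% of 85 and 55.0% of 60.

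Energy metabolism and proliferation lists gave few calls. Of 62 oxidative phosphorylation genes 1 was called, NDUFA1, a complex I subunit in the chromosome X segment, at -1.01 (median of the list -0.06), and it was no longer called without HSP90α-KO replicate 1 (-0.96) or under median centring (-0.97). Of 35 glycolysis and hypoxia genes 1 was called, NDRG1 at -1.25 (median -0.08). DNA replication and mitosis gave 1 call in 49 genes, MKI67, a proliferation marker in the chromosome 10 segment, which was higher by 1.22 (median 0.23), and TOP2A, topoisomerase IIα, was higher by 0.77 without reaching the fold threshold. Among 30 apoptosis regulators CFLAR, an inhibitor of death receptor signalling in the chromosome 2 segment, was higher by 1.46 and PAWR and BIRC3 were lower, of which PAWR passed the filter through HSP90β-KO alone (median of the other 29 genes -0.10). ABC transporters gave 2 higher and 3 lower calls in 19 genes. The higher ones were the cholesterol exporter ABCA1 (1.85) and ABCC2 (1.27, in the chromosome 10 segment), and the lower ones included ABCG2, a drug efflux pump, at 0.41 ± 0.14 CPM in HSP90α-KO and 14.3 ± 0.28 CPM in HSP90β-KO (SD, n = 3 each), a difference of -4.89, and the surfactant lipid transporter ABCA3 at -2.88. ABCB1, the P-glycoprotein pump, differed by -0.04. Of 12 aldehyde dehydrogenases 2 were higher, ALDH4A1 by 3.28 and ALDH2 by 1.41, and ALDH1A2 was lower by 1.53 (median 0.26). CA12, a membrane carbonic anhydrase, was higher by 3.65, against -6.67 for CA2. The interferon response gave 2 higher and 2 lower calls in 23 genes (median -0.10), with the RNA sensor IFIH1 at -1.91. NF-kB and inflammatory genes gave 2 higher, the receptors TLR6 (2.84) and TLR1 (2.42), and 1 lower, BIRC3 (-1.87), in 26. TLR1 passed the filter through HSP90α-KO alone, and the other 25 had 1 call in each direction (median -0.14). WNT signalling gave 4 higher and 1 lower in 26 (median -0.04), with the receptors FZD7 and FZD1 at 2.11 and 1.80.

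**Figure D5:**
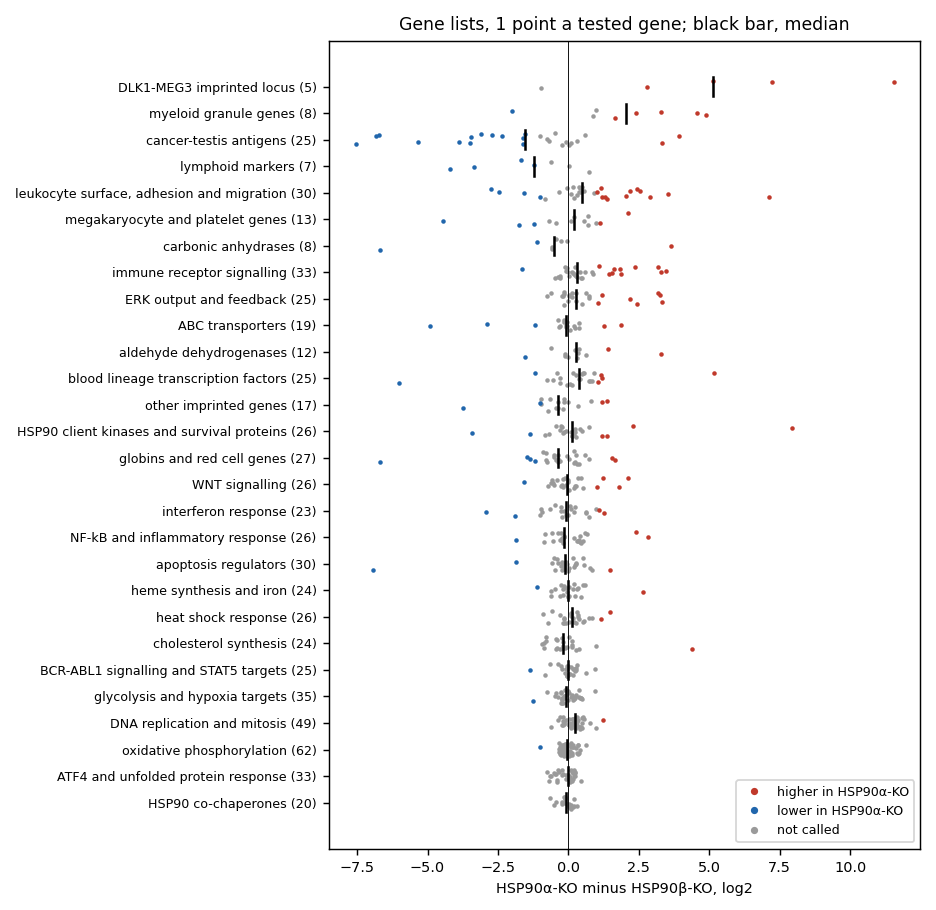
Difference between HSP90α-KO and HSP90β-KO (log2) of each tested gene in the lists with at least 5 tested genes, ordered by the share of called genes; red and blue points are genes called higher and lower in HSP90α-KO, and black bars are medians. The DLK1-MEG3 locus lies at the top with 4 of 5 called, of which 3 passed the filter through HSP90α-KO alone, and the 20 HSP90 co-chaperones at the bottom with none.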

How the data were processed

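The authors trimmed single reads of stranded mRNA libraries, aligned them to GRCh38 with STAR and used featureCounts for gene counts and edgeR for normalization, all under Galaxy. The deposited values are log2 CPM, per the authors' methods. Their prior count was estimated here from the values, at 1.957 reads. On the linear scale they fell on whole reads (largest deviation 3.62e-06 reads), from which reads per gene were recovered, 19594381 to 26216730 per library. Entries without an identifier, 30 in all, held at most 0.0304% of reads and were left out.

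All 9 libraries were fitted in limma 3.58.1 (R 4.3.3; lmFit, contrasts, eBayes with an intensity trend), with Benjamini-Hochberg adjustment over 16591 genes. On simulated data 200 of 200 planted genes were recovered and 1 unchanged gene was called. The planted log2 difference was 2, in genes above the lowest levels and with normally distributed noise. The recovery therefore does not cover called genes with few reads. Replicate pairs differed by 1.15 to 3.18 times the counting variance. The gene lists and the comparison were chosen with earlier results of these data known. Genes named were the knocked-out genes, the 10 largest (average log2 CPM of at least 1) and 5 most abundant called genes in each direction, the 8 leading genes of each opposite pattern with that average over the 9 libraries, up to 4 called genes of each list and a few defining markers, with other list members given for contrast. Genes with only an identifier were passed over, and some named by the rule are not reported here. CPM are not divided by gene length, so groups were compared within a gene. Rankings of genes by abundance and summed levels used CPM without a correction for length.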

Additional observations from a re-analysis of the deposited data

How the results depend on the processing

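The counts moved with the thresholds and with how low genes were handled. Genes higher and lower in HSP90α-KO numbered 511 and 423 with an average log2 CPM of at least 1 required, 656 and 506 with a pseudocount of 1 CPM, 275 and 232 with one of 5 CPM, 5097 and 5009 by the adjusted p alone, and 450 and 345 with a log2 difference beyond 2 required. The opposite genes (above, then below EV in HSP90α-KO) numbered 52 and 30, 43 and 25, 12 and 5, 1002 and 880, and 25 and 14 in the same order. Without each replicate in turn the 4 counts ranged from 1187 to 1208, 889 to 922, 122 to 138 and 93 to 103. With no filter, a pseudocount of 0.1 CPM, quantile normalization, median centring, no intensity trend, only the compared libraries or voom on the recovered reads, they stayed within 1.5 times (1129 to 1340, 832 to 1027, 112 to 154 and 95 to 116). HSP90AA1 ranged from -3.83 to -3.67 over these settings, and HSP90AB1 from 0.58 under quantile normalization to 0.83.

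Replicates that share a number did not deviate together (r from -0.048 to 0.031), so the numbers pair nothing, and a fit with the replicate block called 1187, 889, 129 and 99 genes.

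Of 112 named genes that were called, 68 kept every call over 20 alternatives and 44 lost at least 1, of which 40 lost it with a pseudocount of 5 CPM. BCR turned to -0.0038 under quantile normalization (adjusted p = 0.95 from limma). The causes were not tested. Depth limits the 272 called genes with 3 reads or fewer per library in a group, where the size of the difference is uncertain.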

Other observations

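The HOXA cluster on chromosome 7, genes of body axis patterning and blood progenitor identity, stood out after the values were seen and is therefore given without a test of the cluster. HOXA3 and the antisense RNA HOXA-AS2 held no read in any HSP90α-KO library, against 101 to 124 and 237 to 296 reads in HSP90β-KO, with EV at 13 to 21 and 26 to 44 reads. HOTAIRM1, a long non-coding RNA of myeloid cells, and HOXA2 and HOXA5 had the same order at lower levels. HOXA3, HOXA-AS2, HOTAIRM1, HOXA2 and HOXA5 passed the filter through HSP90β-KO alone. The filter favors such calls, so their values and shared order are given only as a description. HOXA11-AS, at the other end of the cluster, held 5 to 11 reads in HSP90α-KO and 8 to 16 in HSP90β-KO, a log2 difference of -0.42 (adjusted p = 0.28 from limma). Antisense pairs such as HOXA3 and HOXA-AS2 may share reads, since the strand setting of the counting is not given in the sources used here.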
